A study of Rattus norvegicus with 12 samples.

Results

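Microglia, the immune cells that reside in the brain, were followed from 6 h to 24 h in control conditioned medium. The members are 6 of the 12 bead arrays of the series, chosen by their labels: 3 from primary rat microglia kept for 24 h in medium of LacZ-expressing cells (LZCM) and 3 from microglia kept in it for 6 h. LZCM came from SH-SY5Y cells (human neuroblastoma) that were differentiated and then infected with adenovirus carrying LacZ, the gene of beta-galactosidase, at a multiplicity of infection of 100. The donor cells conditioned serum-free DMEM for 18 h, and the microglia received a 5x concentrate of it. The remaining 6 arrays hold microglia kept for 6 h or 24 h (n = 3 each) in medium prepared alike from cells infected with an alpha-synuclein vector (aSCM). They entered the fit for the spread between arrays and for 1 test, of whether the change over time differed between the media. All 4 groups thus share concentrated serum-free medium of virus-infected human cells, and microglia without such medium, or at 0 h, are not analysed here. The labels say that the microglia themselves carried no transfected gene. They give no rat strain or age and no way of isolating the cells, and they do not say whether the 3 replicates of a group are separate cultures or animals. The p-values therefore measure only how far these samples spread, and part of that spread may be technical.

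Microglia sense damage and microbes through pattern-recognition receptors, among them the Toll-like receptors, whose adaptor MyD88 leads to the transcription factor NF-kB and to the release of cytokines and chemokines. The same stimuli can induce type I interferon, which acts through its receptors and transcription factors on a short promoter element, the interferon-stimulated response element (ISRE), to switch on antiviral genes. Cultured microglia are commonly collected from mixed glial cultures, in which astrocytes and oligodendrocyte precursors grow beside them.

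The label was checked against cell type markers. All 21 microglial markers that could be tested lay above background on at least 1 LZCM array, among them Aif1 (the calcium-binding protein Iba1), Trem2, Tyrobp, C1qa and the purinergic receptor P2ry12. The LZCM arrays also carried signal for markers of other brain cells. Of 11 astrocyte markers on the array 9 were tested, and Aqp4 and Gjb6 never rose above background in LZCM. Of 14 oligodendrocyte lineage markers 13 were tested, with Opalin never above background, and of 18 neuronal markers 16 were tested, with Slc17a7 and Syn1 never above background. Of 11 endothelial and mural markers 3 were tested, with Cdh5, Vwf, Emcn, Egfl7, Rgs5, Kcnj8 and Abcc9 never above background. Of 13 monocyte and T cell markers 6 were tested, with Cd3d, Cd8a and S100a9 among those never above background. A probe that stayed at background does not show that its gene was silent. The cytoskeletal gene Actg1 and the ribosomal protein genes Rpl11, Rpl34 and Rps19 never rose above background in LZCM either. In bulk RNA, fewer cells of a type and less RNA per cell cannot be told apart.

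On each LZCM array 11829 to 12000 of 22523 probes lay above background, and 13003 probes were tested. Arrays of the same time correlated at 0.997 over the deposited log2 values, while arrays of different times correlated at 0.987 to 0.989. A called probe is one with a Benjamini-Hochberg adjusted p under 0.05 in limma. Of the tested probes 4647 were called, which is 35.7%, with 2305 higher at 24 h (17.7%) and 2342 lower (18.0%). Most calls were small: 302 probes rose and 228 fell at least 2-fold, and 10 rose and 19 fell at least 4-fold. With 1 probe a gene, 8905 genes were tested, 39.1% were called, 19.7% higher and 19.5% lower, and the median log2 fold change was -0.01. These gene percentages are the background for every list below, and each list is counted over its tested members. The 2 groups did not overlap for 49.2% of the tested probes, called or not. A member could pass the filter for testing through 1 group alone. Quantile normalization sets the arrays to 1 distribution. On the deposited values as they are, the median of all tested probes was -0.15 and 25.2% of calls were higher, against 49.6% after normalization, so changes are relative to the median probe.

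**Figure D1:**
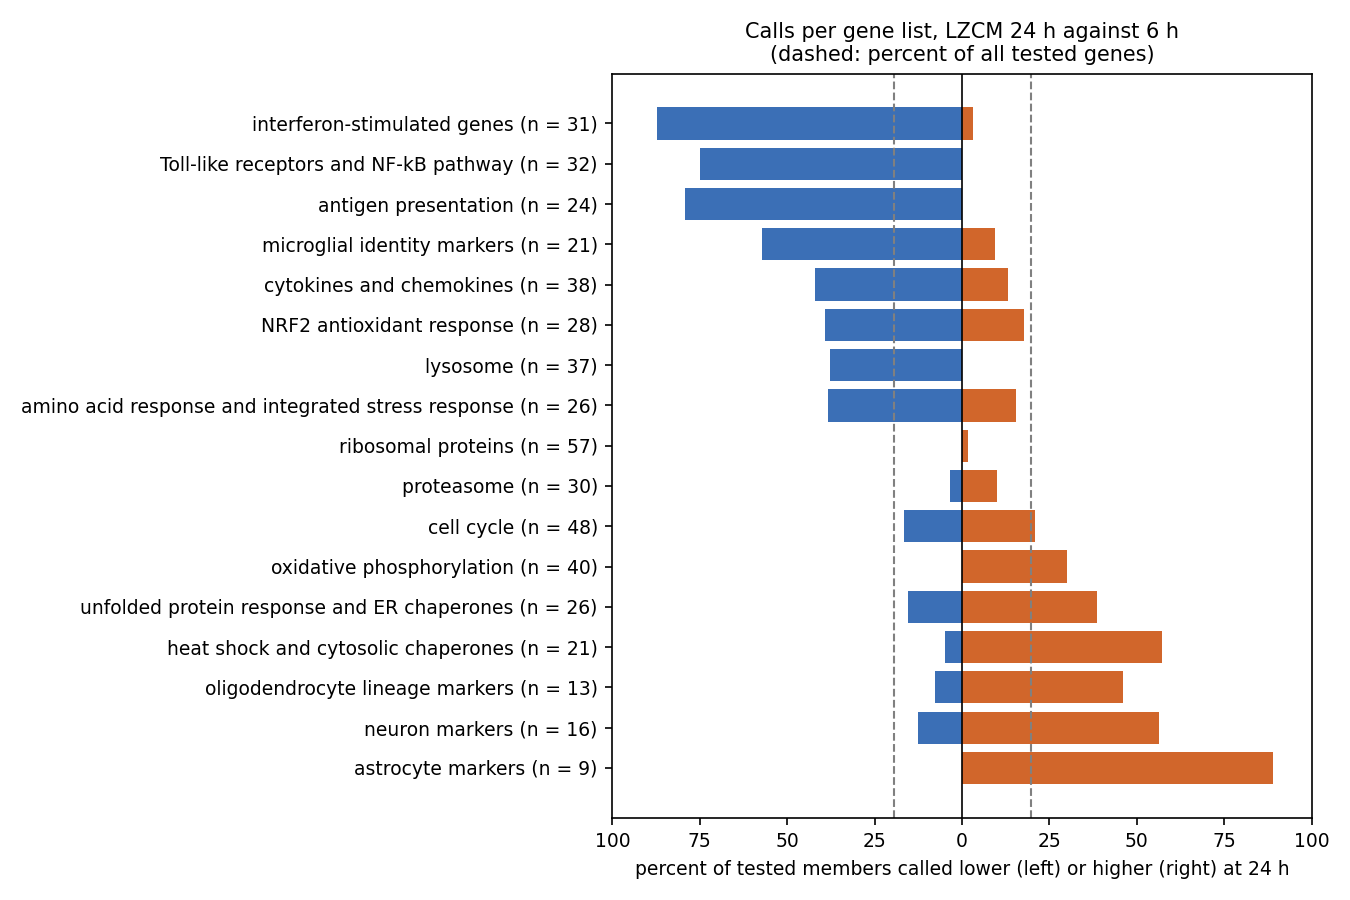
Percent of the tested members of 17 of the 40 gene lists called lower (bars to the left) or higher (bars to the right) at 24 h in LZCM. The number tested stands beside each name, and dashed lines mark the percent of all tested genes, 19.5% lower and 19.7% higher. Lists not drawn include some that moved both ways, such as matrix genes (27.6% higher, 34.5% lower) and cytoskeletal genes (28.6% each way). Of the 31 interferon-stimulated genes 87.1% were lower, and of the 9 astrocyte markers 88.9% were higher.

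Interferon-stimulated genes fell almost as a group between 6 h and 24 h. Of 31 tested members 27 were lower and 1 was higher, with a median log2 fold change of -1.22. In the plot of genes lower after 24 h, 6 of them are drawn array by array. Ifit3, which binds viral RNA together with its relatives, gave normalized log2 signals of 9.26, 8.52 and 9.20 at 6 h and of 7.02, 6.74 and 6.77 at 24 h. All 24 h arrays lay below all 6 h arrays, a 4.44-fold fall (95% interval 3.42 to 5.77, limma, Benjamini-Hochberg adjusted p = 1.3e-06). Usp18, the protease that removes ISG15 and damps interferon receptor signalling, fell 4.29-fold, from 8.92, 8.52 and 8.81 to 6.77, 6.46 and 6.72. The groups did not overlap there either. Ifit3, Usp18, Mx2, Oasl and Cmpk2 are among the 15 ranked falls, for which groups without overlap were a condition. Mx2, a dynamin-like GTPase, fell 4.24-fold from 12.17, 11.67 and 12.11 to 10.04, 9.84 and 9.82. Oasl, of the oligoadenylate synthetase family, fell 4.22-fold from 11.37, 11.11 and 11.58 to 9.32, 9.09 and 9.41. Cmpk2, a mitochondrial nucleotide kinase, fell 4.29-fold, and its lowest 6 h array (10.35) still lay above its highest 24 h array (8.70). Array 2 of the 6 h group was the lowest of its group for Ifit3, Usp18, Mx2, Oasl and Cmpk2, and without it 26 members were called lower.

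The fall ran through the sensors and regulators of the pathway as well. Irf7, the factor that amplifies interferon production, fell by 1.64 on the log2 scale, from 11.16, 10.94 and 10.97 to 9.62, 9.27 and 9.28. Among cytosolic RNA and DNA sensors, Zbp1 fell by 1.76, Dhx58 by 1.53 and Ifih1 by 1.45. Among transcription factors of the response Irf9 fell by 0.95 and Stat2 by 0.78. Ifit2 was above background on all 6 h arrays and on no 24 h array, so that its fall was at least 1.95-fold, and Oas1b in the same way fell at least 1.29-fold. Gbp2, a guanylate-binding GTPase, went the other way and rose by 0.72, from 9.95, 9.86 and 9.95 to 10.57, 10.63 and 10.71. Bst2, Gbp5 and Gbp4 did not pass the test, with log2 fold changes of -0.27, -0.21 and 0.08. Ifit1 and Isg15 never lay above background in LZCM.

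The 250 bases before the start site were searched, on both strands, for 2 short letter patterns of the elements named above. They are shown for 5 genes that fell and whose window holds a match, because these elements are what the pathway's factors are known to bind. The ISRE pattern, a pair of TTTC separated by any 2 bases, was in 902 of 27457 rat promoters (3.29%) and in 200 of 7427 promoters of tested genes (2.69%). It was in 19 of the 29 promoters found for interferon-stimulated genes (65.5%), and in 11 of the 21 of members called lower (52.4%). Promoters with it included those of Gbp2, which rose, and of Bst2, Gbp4 and Gbp5, which did not pass the test. Within the list it was thus not more frequent among the members that fell. It was also in 8 of 24 antigen presentation promoters. The NF-kB pattern, GGGA and TTCC separated by any 2 bases, was in 293 promoters (1.07%), in 6 of 32 of cytokines and chemokines and in 4 of 36 of the Toll-like receptor and NF-kB list. In all 6 letter patterns were tried before these 2 were chosen: a wider NF-kB pattern, GGGA and CC separated by any 4 bases, was in 16.8% of promoters, and an antioxidant element pattern (TGACNNNGC) in 10.2% of all and in 7 of 28 of NRF2 genes. A match is a description of letters, not of binding. The sequences are RefSeq's, build GRCr8, 5′ to 3′ in the direction of the gene, with matches in capitals.
Cxcl10 (chr14:15988816-15989065, plus strand): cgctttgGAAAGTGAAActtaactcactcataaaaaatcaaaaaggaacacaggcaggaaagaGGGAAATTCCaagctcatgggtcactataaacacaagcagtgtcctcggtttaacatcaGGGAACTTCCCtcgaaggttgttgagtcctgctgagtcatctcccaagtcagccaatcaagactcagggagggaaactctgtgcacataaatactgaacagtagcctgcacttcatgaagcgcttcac
Ifit3 (chr1:241527076-241527325, plus strand): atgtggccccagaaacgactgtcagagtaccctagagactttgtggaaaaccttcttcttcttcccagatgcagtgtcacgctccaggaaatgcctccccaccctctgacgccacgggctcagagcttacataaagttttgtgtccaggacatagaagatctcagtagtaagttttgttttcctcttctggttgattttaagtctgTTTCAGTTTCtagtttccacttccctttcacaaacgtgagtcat
Irf7 (chr1:205800024-205800273, minus strand): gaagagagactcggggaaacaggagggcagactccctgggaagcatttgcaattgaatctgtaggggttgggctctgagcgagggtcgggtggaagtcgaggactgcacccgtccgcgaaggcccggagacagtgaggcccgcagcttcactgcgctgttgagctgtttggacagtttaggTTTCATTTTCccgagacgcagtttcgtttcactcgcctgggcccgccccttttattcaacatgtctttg
Oasl2 (chr12:47383186-47383435, minus strand): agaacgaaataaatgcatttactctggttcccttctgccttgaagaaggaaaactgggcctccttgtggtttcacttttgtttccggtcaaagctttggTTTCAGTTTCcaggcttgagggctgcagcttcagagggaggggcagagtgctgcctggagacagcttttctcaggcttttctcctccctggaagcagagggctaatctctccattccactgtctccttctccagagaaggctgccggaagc
Nfkbia (chr6:78597073-78597322, minus strand): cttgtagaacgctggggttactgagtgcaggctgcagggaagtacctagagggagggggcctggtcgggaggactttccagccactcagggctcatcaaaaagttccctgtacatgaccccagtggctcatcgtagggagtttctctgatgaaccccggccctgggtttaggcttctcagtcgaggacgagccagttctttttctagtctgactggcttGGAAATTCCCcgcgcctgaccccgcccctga
In Cxcl10 the ISRE pattern lies 243 to 234 bases before the start, and 3 NF-kB matches follow at 187 to 178, 128 to 119 and 127 to 118, of which the last 2 overlap. The ISRE pattern lies 44 to 35 bases before the start in Ifit3, 69 to 60 in Irf7 and 151 to 142 in Oasl2, and the NF-kB pattern lies 31 to 22 bases before it in Nfkbia.

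**Figure D2:**
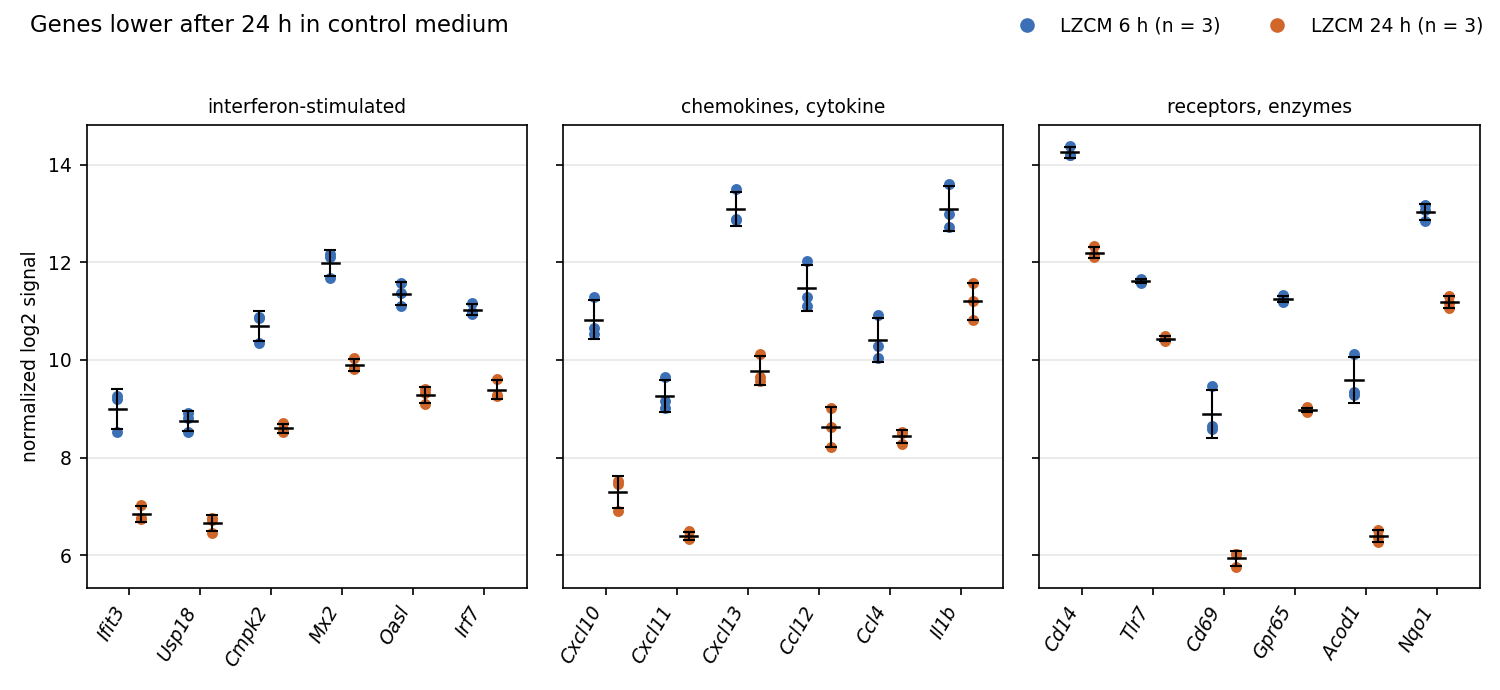
Normalized log2 signal of 18 genes that were lower at 24 h, on each LZCM array (blue, 6 h; orange, 24 h; n = 3 each), with mean and SD as black bars. The genes were chosen after their values were seen, and in none of them do the 2 groups overlap; Cxcl10 fell from 10.54 to 11.28 at 6 h to 6.92 to 7.51 at 24 h.

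Chemokines held the largest falls among the ranked genes, yet the family divided. Of 38 tested cytokines and chemokines 16 were lower, 5 were higher and 17 were not called, with a median log2 fold change of -0.23. Cxcl10, an interferon-induced attractant of T cells, read 10.66, 10.54 and 11.28 at 6 h and 7.51, 6.92 and 7.45 at 24 h. The 2 groups were far apart, an 11.6-fold fall (95% interval 8.65 to 15.5, limma, Benjamini-Hochberg adjusted p = 9.1e-08). Cxcl13, an attractant of B cells, fell 9.91-fold from 12.89, 12.87 and 13.49 to 10.12, 9.56 and 9.65. Cxcl11, which shares the receptor CXCR3 with Cxcl10, fell 7.31-fold from 9.15, 9.01 and 9.64 to 6.34, 6.50 and 6.36. Ccl12, a monocyte attractant in mice, fell 7.21-fold from 11.11, 11.30 and 12.01 to 9.02, 8.21 and 8.63. Every one of these 4 had its highest value on array 3 of the 6 h group. Without that array the log2 falls were -3.31 for Cxcl10, -3.11 for Cxcl13, -2.68 for Cxcl11 and -2.58 for Ccl12, all still called.

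The interleukin-1 family and the macrophage inflammatory proteins fell less steeply. Il1b, the inflammasome-processed cytokine, fell by 1.90 on the log2 scale, from 12.71, 12.98 and 13.60 to 11.58, 10.82 and 11.21. Its natural antagonist Il1rn fell by 1.73, and Il1a and Il18 fell by 1.28 and 1.00. The macrophage attractants Ccl4 and Ccl3 fell 3.95-fold and by 1.30 on the log2 scale. Il6 lay above background on 3 arrays at 6 h and on 0 at 24 h, a fall of at least 1.21-fold. Tnf, at 6.59, 6.34 and 6.45 against 5.89, 6.27 and 6.20, did not pass the test (adjusted p = 0.057). Ccl2, a monocyte attractant, also did not pass, with a log2 fold change of 0.20.

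The 5 that rose were Ccl20, Cx3cl1, Cxcl12, Cxcl1 and Ccl5. Ccl20, the ligand of CCR6, rose 4.51-fold (95% interval 3.58 to 5.69, limma, Benjamini-Hochberg adjusted p = 5.0e-07), from 6.12, 5.88 and 6.60 to 8.40, 8.43 and 8.30, and only 2 of its 6 h arrays lay above background. Cx3cl1, the neuronal ligand of the microglial receptor Cx3cr1, rose by 1.32 from 9.33, 9.43 and 9.35 to 10.80, 10.60 and 10.67. Cxcl12, the ligand of CXCR4, rose by 1.25, and Cxcl1, a neutrophil attractant, by 1.12. Ccl5 rose by only 0.32.

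Most receptors and signal carriers of the Toll-like receptor pathway fell. Of 32 tested members 24 were lower and 0 were higher in limma, with a median log2 fold change of -0.52. At an unadjusted p under 0.05 the counts were 26 and 0. Cd14, which hands lipopolysaccharide to TLR4, fell 4.16-fold (limma, Benjamini-Hochberg adjusted p = 1.5e-08) from 14.19, 14.19 and 14.38 to 12.33, 12.10 and 12.15. Tlr7, a sensor of single-stranded RNA, fell 2.26-fold from 11.60, 11.65 and 11.58 to 10.43, 10.49 and 10.39. Tlr2, the lipoprotein receptor, fell by 0.82 on the log2 scale from 13.45, 13.53 and 13.69 to 12.74, 12.71 and 12.78, and Tlr4 fell by 0.45. No group overlapped with the other in these 4 receptors, which for Cd14, a ranked fall, was a condition of the ranking. The adaptors Ticam2 and Myd88 fell by 0.96 and 0.56. The NF-kB subunit gene Nfkb2 fell by 1.02 and Rela by 0.22. Inhibitors fell too: Nfkbia by 0.89, Nfkbie by 0.86 and Irak3, a kinase-dead brake on the pathway, by 1.05. The 8 members not called had log2 fold changes from -0.41 (Ikbkg) to 0.03 (Map3k7).

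Immediate early genes showed no common direction: of 27 tested, 9 were lower and 6 higher, with a median of -0.10. Junb, an AP-1 subunit, fell 2.12-fold from 11.98, 11.86 and 11.99 to 10.93, 10.84 and 10.80. Myc rose 1.57-fold from 10.17, 10.23 and 10.22 to 10.85, 10.89 and 10.82, and Egr2 rose 1.53-fold. Gadd45b and Ier3 fell 1.67-fold and 1.52-fold. Maff is counted among the falls although it lay above background on 1 array only.

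Most genes of antigen presentation fell, with falls in both the class I and the class II pathway. Of 24 tested members 19 were lower and 0 were higher in limma, with 22 and 0 at an unadjusted p under 0.05. The median was -0.58, and all 24 had a log2 fold change below 0. RT1-Da, the rat class II alpha chain, fell 3.31-fold (limma, Benjamini-Hochberg adjusted p = 3.8e-06) from 8.95, 9.42 and 9.52 to 7.75, 7.60 and 7.36. RT1-Ba, another class II alpha chain, was above background at 6 h only and fell at least 1.74-fold. The invariant chain Cd74 fell by 0.88 on the log2 scale. Among class I genes RT1-N3 fell 2.75-fold and RT1-S3 2.41-fold, the peptide transporter genes Tap1 and Tap2 fell by 0.84 and 0.39, and the immunoproteasome subunits Psmb8 and Psmb9 by 0.58 and 0.53. The light chain B2m did not pass the test (-0.01). Rat class I genes are near-identical copies, so probes for RT1-N3, RT1-S3 and their relatives may share signal. The co-stimulators Cd86 and Cd40 fell 2.36-fold and 1.88-fold.

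Complement and phagocytic receptors moved both ways. Of 16 complement genes 6 were lower and 2 higher. C3ar1, the C3a receptor, fell 1.91-fold from 9.63, 9.84 and 9.85 to 8.86, 8.88 and 8.78, and Vsig4, a receptor for C3 fragments, fell 1.94-fold. C1s, a protease of the C1 complex, rose 1.74-fold. The C1q chains C1qa, C1qb and C1qc did not pass, at -0.11, -0.11 and -0.07. Of 21 genes of alternative activation and phagocytosis 11 were lower and 3 higher. Tgfbr1, a TGF-beta receptor, fell 2.74-fold from 9.17, 8.98 and 9.02 to 7.54, 7.75 and 7.50. Arg1 fell 2.01-fold, the scavenger receptor Cd36 1.92-fold and the Fc receptor Fcgr1a 1.81-fold. Lgals1, a galectin, rose 2.14-fold from 11.70, 11.71 and 11.58 to 12.85, 12.67 and 12.75. Mrc1, the mannose receptor, rose by 0.42, whereas Apoe and Gpnmb did not pass (0.02 and 0.10).

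Markers of microglia themselves were more often lower than higher. Of 21 tested, 12 fell and 2 rose, with a median of -0.34. Cx3cr1, the fractalkine receptor, fell 2.12-fold (limma, Benjamini-Hochberg adjusted p = 1.3e-06) from 8.58, 8.74 and 8.76 to 7.51, 7.71 and 7.60. Spi1, the myeloid transcription factor PU.1, fell 1.94-fold from 10.72, 10.60 and 10.90 to 9.76, 9.72 and 9.89. P2ry12 fell 1.66-fold from 10.31, 10.31 and 10.05 to 9.62, 9.45 and 9.41. In all 3 the groups did not overlap. Tmem119 fell 1.73-fold and the pan-leukocyte phosphatase Ptprc 1.92-fold, while Aif1 fell 1.15-fold only. Trem2 (14.98, 14.99 and 14.95 against 15.06, 15.02 and 15.03) and Fcer1g did not pass. Sall1 rose by 0.61, and Olfml3, above background on no 6 h array and on 3 24 h arrays, rose at least 1.98-fold. The summed signal of the 21 genes went from 257190 to 262771 at 6 h to 232153 to 247285 at 24 h, a ratio of means of 0.927.

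Most astrocyte markers rose, and markers of the oligodendrocyte lineage and of neurons were more often higher than lower. Of 9 tested astrocyte markers 8 were higher and 0 lower in limma, also at an unadjusted p under 0.05, with a median log2 fold change of 0.96. Gfap, the astrocyte intermediate filament, rose 4.87-fold (95% interval 4.23 to 5.61, limma, Benjamini-Hochberg adjusted p = 1.5e-08) from 9.61, 9.76 and 9.83 to 12.12, 12.09 and 11.85. The gap junction gene Gja1 rose 2.42-fold from 10.82, 10.79 and 10.81 to 11.95, 12.25 and 12.05. Aldoc, an aldolase enriched in astrocytes, rose 3.04-fold, and S100b 1.81-fold. None of these had overlapping groups, which for Gfap, a ranked rise, was a condition of the ranking. Slc1a2, a glutamate transporter, did not pass (-0.16). The summed signal of the list went from 8485 to 8727 at 6 h to 16742 to 18433 at 24 h, a ratio of means of 2.02. Without its brightest member, Slc1a3, the ratio was 2.89.

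In the oligodendrocyte lineage list genes of precursors and lineage transcription factors rose, while of its 8 myelin genes only Ermn rose, 1.29-fold. Outside this list Omg, the oligodendrocyte myelin glycoprotein, rose 3.80-fold, so the split depends on the members listed. Of 13 tested markers 6 were higher and 1 lower, with a median of 0.23. Olig1, a lineage transcription factor, rose 4.40-fold (limma, Benjamini-Hochberg adjusted p = 8.9e-09) from 12.50, 12.63 and 12.53 to 14.73, 14.63 and 14.73. Pdgfra, the growth factor receptor of precursors, rose 3.34-fold from 9.24, 9.21 and 9.11 to 11.05, 10.96 and 10.77. Cspg4, the precursor proteoglycan NG2, rose 2.79-fold, Sox10 2.12-fold and Olig2 1.67-fold. Mbp, a myelin protein, fell 1.47-fold, from 9.56, 9.86 and 9.80 to 8.91, 9.54 and 9.10. The myelin genes Mag, Mobp and Mog did not pass, at -0.12, -0.10 and -0.02. The summed signal rose from 15148 to 16848 to 39218 to 39959, and Olig1 made up 67.1% of it at 24 h. Without Olig1 the ratio of means was 1.30, against 2.47 with it.

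Of 16 tested neuronal markers 9 were higher and 2 lower, with a median of 0.65. Gap43, a growth cone protein, rose 2.39-fold (limma, Benjamini-Hochberg adjusted p = 1.5e-07) from 12.46, 12.41 and 12.37 to 13.66, 13.75 and 13.60. Stmn2, a tubulin-binding protein of axons, rose 2.39-fold from 10.25, 10.21 and 9.95 to 11.47, 11.34 and 11.37. Tubb3 and Map2 rose 2.15-fold and 1.71-fold. The light neurofilament gene Nefl fell 2.02-fold, from 8.38, 8.47 and 8.24 to 7.25, 7.44 and 7.36. The summed signal went from 8984 to 9667 at 6 h to 19234 to 20579 at 24 h, and without Gap43 the ratio of means was 1.76. The astrocyte, oligodendrocyte lineage and neuronal sums thus moved with the time groups on every array, as the plot of summed signals shows. Their part in the other rises and falls was not tested.

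**Figure D3:**
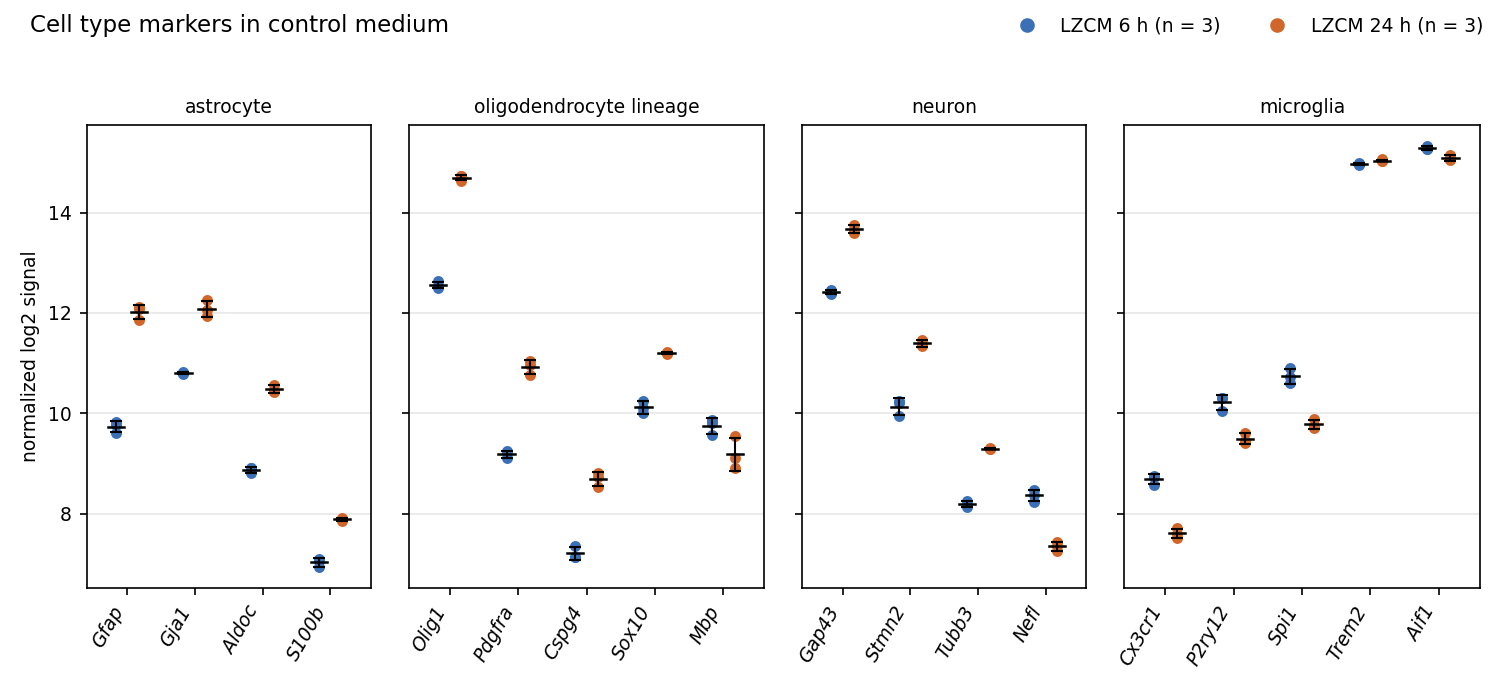
Normalized log2 signal of astrocyte, oligodendrocyte lineage, neuronal and microglial markers on each LZCM array (blue, 6 h; orange, 24 h; n = 3 each), with mean and SD as black bars. The genes were chosen after their values were seen; Gfap, Olig1 and Gap43 lay higher on all 24 h arrays, and Cx3cr1, P2ry12, Spi1, Mbp and Nefl lay lower.

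**Figure D4:**
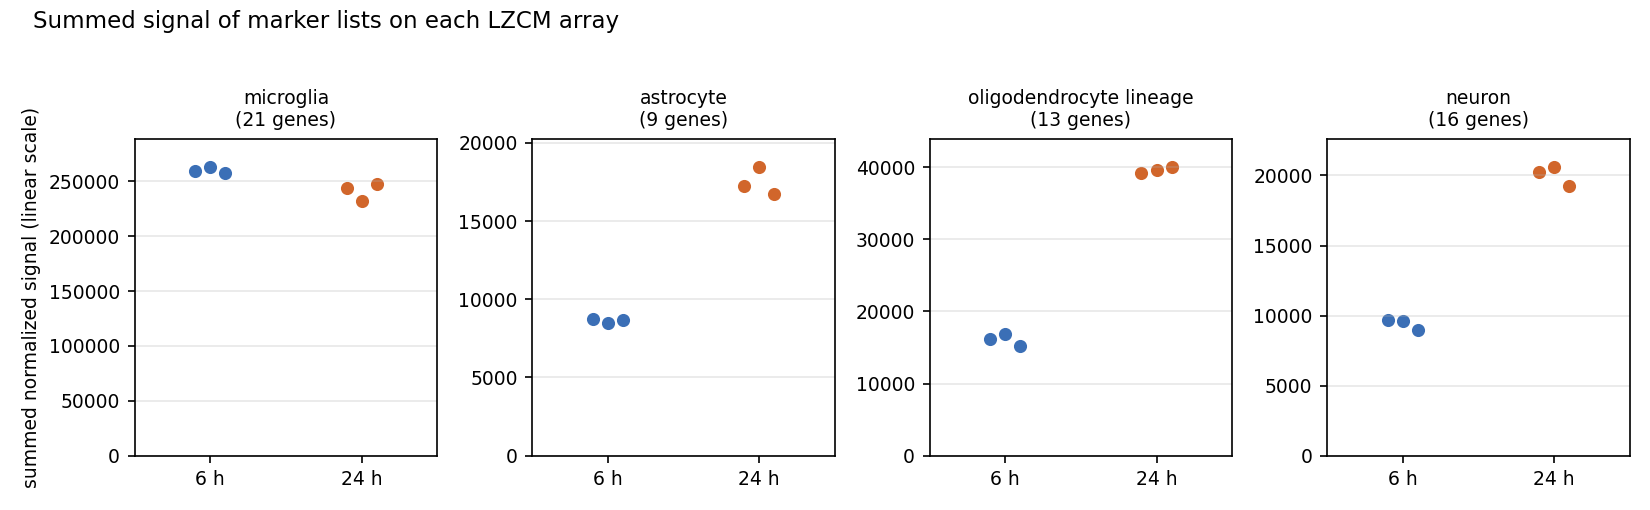
Summed linear normalized signal of the tested markers of 4 cell types on each LZCM array (blue, 6 h; orange, 24 h), 1 point an array. The astrocyte sums were 8485 to 8727 at 6 h and 16742 to 18433 at 24 h, whereas the microglial sums were 257190 to 262771 and 232153 to 247285.

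Few markers of other cell types could be tested. Of 6 tested fibroblast markers Col1a2 (2.53-fold) and Col5a1 (1.77-fold) rose, Fbln1 fell 1.67-fold, and Col3a1, Lum and Mfap5 never lay above background. Of 3 endothelial and mural markers Esam rose 2.05-fold. Of 6 monocyte and T cell markers Ccr2, S100a8 and Cd4 fell, S100a8 by at least 1.18-fold and Ccr2 1.43-fold. Of 3 erythrocyte markers 0 were called in limma, and 0 had an unadjusted p under 0.05.

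The 15 ranked rises include Gfap, Olig1 and Ccl20, described above. Dbx2, a homeobox factor of the neural tube, rose 5.48-fold (95% interval 4.38 to 6.86, limma, Benjamini-Hochberg adjusted p = 1.6e-07) from 6.42, 6.62 and 6.63 to 9.02, 9.07 and 8.94. Acot1, an acyl-CoA thioesterase, rose 5.20-fold from 7.33, 7.43 and 7.30 to 9.74, 9.67 and 9.78. Cspg5, the brain proteoglycan neuroglycan C, rose 4.90-fold from 8.44, 8.45 and 8.58 to 10.77, 10.74 and 10.84. The 24 h arrays lay above all 6 h arrays in each, which was a condition of the ranking. Ltbp1, which holds latent TGF-beta in the matrix, rose 4.23-fold. Sparcl1, a secreted astrocyte protein, rose 4.05-fold from 10.77, 10.97 and 10.87 to 12.93, 12.89 and 12.84. C1ql1, a secreted C1q-like protein, rose 3.93-fold, and Omg, the oligodendrocyte myelin glycoprotein, rose 3.80-fold. The sodium pump subunit Atp1b2, Ndrg2 and the retinaldehyde-binding protein Rlbp1 rose 3.78-fold, 3.77-fold and 3.64-fold. Gria2, an AMPA receptor subunit, rose 3.59-fold from 9.02, 8.98 and 8.95 to 10.97, 10.69 and 10.84, and the proteoglycan Vcan rose 3.53-fold.

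The 15 ranked falls include 5 further genes outside the lists described above. Acod1, which makes itaconate in activated macrophages, fell 9.15-fold (95% interval 7.06 to 11.9, limma, Benjamini-Hochberg adjusted p = 8.5e-08) from 9.35, 9.28 and 10.12 to 6.52, 6.37 and 6.28. Cd69, a lectin of activated leukocytes, fell 7.78-fold from 8.65, 8.58 and 9.46 to 6.03, 5.75 and 6.02. In both, array 3 of the 6 h group was highest, and without it the log2 falls were -2.92 and -2.67. Abcb1b, a drug efflux pump, fell 4.97-fold, and Gpr65, a proton-sensing receptor, fell 4.86-fold from 11.24, 11.19 and 11.32 to 8.94, 8.94 and 9.03. Akr1b8, an aldo-keto reductase, fell 4.50-fold.

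Antioxidant genes under the factor NRF2 divided. Of 28 tested members 11 were lower and 5 higher, with a median of -0.13. Nqo1, a quinone reductase, fell 3.59-fold (limma, Benjamini-Hochberg adjusted p = 1.4e-07) from 12.84, 13.06 and 13.17 to 11.31, 11.07 and 11.16. Sod2, the mitochondrial superoxide dismutase, fell 3.05-fold from 11.29, 11.30 and 11.60 to 9.90, 9.75 and 9.70. Gsr and Gclc, of glutathione recycling and synthesis, fell 1.88-fold and 1.82-fold, and Nfe2l2, which encodes NRF2, fell 1.75-fold. Its partner Keap1 fell by 0.79 on the log2 scale. The metallothionein Mt3 rose 1.92-fold, whereas Hmox1 did not pass (-0.11). In iron handling, with 4 of 14 lower and 2 higher, the iron exporter Slc40a1 fell 2.33-fold from 14.02, 13.98 and 14.02 to 12.67, 12.81 and 12.86, and the ferroxidase Cp fell 2.06-fold. Lcn2, which binds siderophores, rose 1.50-fold with overlapping groups, 9.94, 9.68 and 10.62 against 10.50, 10.93 and 10.57.

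Stress genes of different compartments went different ways. Of 26 genes of the amino acid and integrated stress response 10 were lower and 4 higher. Nupr1, a stress-induced nuclear protein, fell 3.96-fold from 9.93, 9.76 and 10.02 to 7.88, 7.99 and 7.87, Asns, asparagine synthetase, fell 2.08-fold, and Atf4 fell by 0.52 on the log2 scale. Gdf15 rose 1.53-fold and the cationic amino acid transporter Slc7a3 2.03-fold. Of 15 transfer RNA synthetases 5 were lower and 1 higher. In the endoplasmic reticulum 10 of 26 genes rose and 4 fell. Hspa5, the chaperone BiP, rose 1.91-fold from 13.13, 13.15 and 13.23 to 14.12, 14.08 and 14.12. Creld2 rose 2.14-fold and the disulfide isomerase Pdia4 1.93-fold, while Xbp1 did not pass (-0.03). Of 21 cytosolic chaperone genes 12 rose and 1 fell, with a median of 0.24. The small heat shock genes Hspb1 and Hspb8 rose 2.55-fold and 2.32-fold, and the co-chaperone Bag3 fell 1.39-fold. On the deposited values as they are, only 4 of these endoplasmic reticulum genes and 2 of the cytosolic chaperones were called higher.

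Most metabolic lists held changes in both directions, as did all tested genes (19.7% higher, 19.5% lower). Of 40 tested genes of oxidative phosphorylation 12 were higher and 0 lower in limma, with 22 and 0 at an unadjusted p under 0.05, and the largest rise among the 40, of the complex I subunit Ndufs8, was 1.30-fold. That count rests on the scaling: with scaling to the 75th percentile 3 were higher and 3 lower, with cyclic loess 3 and 0 (13 and 2 at an unadjusted p under 0.05 in limma), and without correction or scaling 0 and 0 (0 and 6 at an unadjusted p), with a median of -0.11 in place of 0.16. Of 23 glycolysis genes 8 were lower and 3 higher. The 3 were Aldoc, Pfkm, the muscle phosphofructokinase, and Ldhb, a lactate dehydrogenase chain. Pfkm rose 2.91-fold from 6.91, 7.03 and 7.14 to 8.66, 8.52 and 8.52, and Ldhb rose 2.60-fold from 10.33, 10.56 and 10.25 to 11.78, 11.78 and 11.71. The lactate exporter Slc16a3 fell 2.15-fold. Of 18 genes of fatty acid synthesis 5 rose, led by the desaturase Fads1 (1.80-fold), and 4 fell, led by Dgat2 (1.68-fold). Of 23 genes of lipid storage and beta-oxidation 9 rose and 4 fell, Angptl4 rising 1.77-fold and the fatty acid binding protein Fabp4 falling 1.59-fold. In cholesterol genes 6 of 21 fell and 2 rose, with Stard4, a sterol carrier, falling 2.01-fold. Among 14 liver X receptor targets 5 fell and 2 rose. Ch25h, which makes 25-hydroxycholesterol, fell 2.20-fold. Counts of rises in the lipid lists also rest on the scaling. On the deposited values as they are, 1 gene of lipid storage and beta-oxidation was higher and 4 lower, and of fatty acid synthesis 2 and 4. The counts were 0 and 5 for cholesterol genes, 0 and 5 for liver X receptor targets, and 3 and 9 for glycolysis.

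Matrix and cytoskeletal genes included steep changes in each direction. Of 29 matrix genes, proteases and inhibitors 8 rose and 10 fell. Fn1, fibronectin, rose 3.00-fold from 9.80, 9.79 and 9.71 to 11.32, 11.35 and 11.39, and Plat, the tissue plasminogen activator, rose 2.19-fold, while its relative Plau fell 1.57-fold. The fibronectin receptor chain Itga5 fell 2.16-fold and the hyaluronan receptor Cd44 1.72-fold. Of 21 cytoskeletal genes 6 rose and 6 fell. Tpm1, a tropomyosin, rose 2.63-fold from 9.63, 9.73 and 9.53 to 11.04, 11.07 and 10.96, and Tuba4a fell 2.05-fold from 10.63, 10.62 and 10.74 to 9.58, 9.59 and 9.72.

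Genes of degradation and growth differed from list to list in the number called. Of 37 lysosomal genes 14 were lower and 0 higher in limma, with 17 and 3 at an unadjusted p under 0.05, the acid lipase Lipa falling 1.73-fold and the sialidase Neu1 1.68-fold. Of 25 autophagy genes 7 fell, among them the cargo receptor Sqstm1 (1.74-fold), and 2 rose. Of 57 ribosomal protein genes only Rpl15 was called, rising 1.15-fold, and of 30 proteasome genes 3 rose and 1 fell. Of 34 ribosome biogenesis genes 5 rose, led by Ddx21 (1.67-fold), and 2 fell. Of 48 cell cycle genes 10 rose and 8 fell. The cyclin Ccnd1 rose 1.80-fold from 12.60, 12.65 and 12.61 to 13.50, 13.49 and 13.42, and the mitotic kinase Aurka fell 1.79-fold from 9.75, 9.87 and 9.75 to 8.91, 8.97 and 8.96. Of 25 genes of p53 and apoptosis 12 fell and 5 rose, with the cell cycle inhibitor Cdkn1a falling 2.38-fold. Changes ran both ways for hypoxia genes (4 of 13 higher, 3 lower) and clock genes (3 of 11 higher, 1 lower). Of 12 glucocorticoid-responsive genes 5 were higher (41.7%) and 2 lower (16.7%), against 19.7% and 19.5% of all tested genes. The largest called change in these 3 lists was the 1.78-fold fall of P4ha2, a collagen hydroxylase. On the deposited values as they are, 0 genes were higher in each of the 3, and 2, 1 and 2 were lower. Of the cell cycle genes 1 was then higher and 9 lower.

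Whether time acted alike in the other medium was tested with the medium by time interaction, the log2 time effect in aSCM minus that in LZCM. The 2 time effects share no arrays. In aSCM 59.1% of probes were called between 6 h and 24 h, and the interaction was called for 51.0% of all tested probes. Among the probes higher in LZCM 1595 of 2305 (69.2%) had a called interaction, and among those lower 1687 of 2342 (72.0%). Among the probes not called in LZCM the count was 3346 of 8356 (40.0%). The LZCM time effect that set these classes is itself a term of the interaction, so that the gap is in part set by the choice. Of the 15 ranked rises 14 differed between the media and of the 15 ranked falls 13, the exceptions being Omg, Acod1 and Oasl. These genes were ranked by their size in LZCM, so that a smaller effect in aSCM is in part set by the ranking.

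Most interferon-stimulated genes fell in both media, and many of them, like the glial and neuronal markers, had a called interaction. With 1 probe a gene, 62.9% of genes were called in aSCM and 54.9% had a called interaction. In aSCM 26 of the 31 interferon-stimulated genes fell, and 23 had a called interaction, 14 of them below LZCM. Below LZCM means here a lower time effect, not a lower signal. Ifit3 changed by -4.27 on the log2 scale in aSCM and by -2.15 in LZCM, while Usp18 changed by -0.52 and -2.10. The mean log2 signals of Ifit3 at 6 h and 24 h were 12.14 and 7.86 in aSCM, against 8.99 and 6.84 in LZCM. Those of Usp18 were 11.25 and 10.73 in aSCM, against 8.75 and 6.65 in LZCM. Of the 9 astrocyte markers 1 rose and 6 fell in aSCM, and all 7 called interactions ran below LZCM. Gfap changed by -0.50 in aSCM and by 2.28 in LZCM (difference -2.79, limma, Benjamini-Hochberg adjusted p = 8.6e-09). All 10 called interactions of the 13 oligodendrocyte lineage markers and all 12 of the 16 neuronal markers also ran below LZCM. Of the microglial markers 6 rose and 7 fell in aSCM, and Cx3cr1 changed by 1.51 there. Ccl20 had the widest gap among the ranked genes, -5.32 in aSCM and 2.17 in LZCM. Its mean log2 signal went from 12.43 to 7.11 in aSCM and from 6.20 to 8.38 in LZCM.

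**Figure D5:**
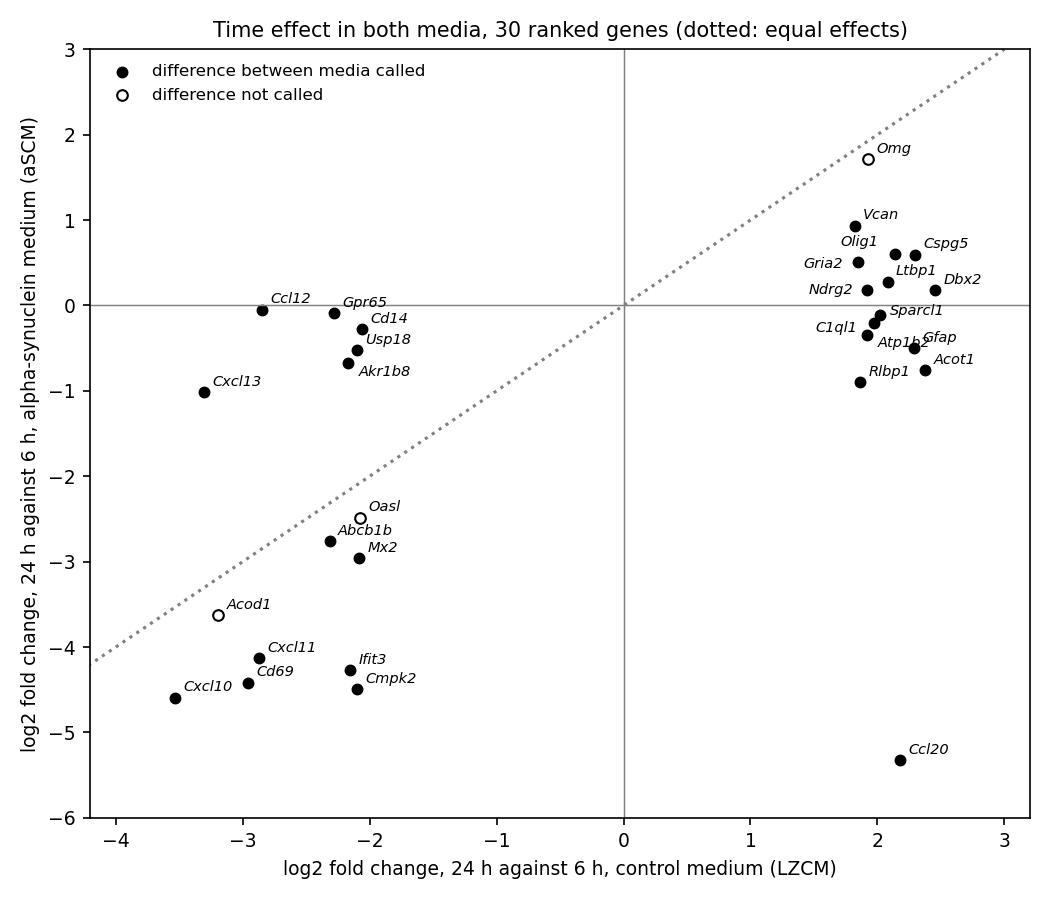
Log2 fold change from 6 h to 24 h in control medium (horizontal) and in alpha-synuclein medium (vertical) of the 15 ranked rises and 15 ranked falls, 1 point a gene; filled points have a called medium by time interaction, and the dotted line marks equal effects. Omg, Acod1 and Oasl lie nearest the line, while Ccl20 lies at 2.17 in control medium and -5.32 in alpha-synuclein medium.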

How the data were processed

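Total RNA of 12 samples of primary rat microglia was hybridised to Illumina bead arrays, 3 for each medium and time. The deposited table holds 1 log2 signal for each of 22523 probes and array, and per the file headers it is not normalized. That the base is 2 was read from the range of the values. The authors' series matrix holds a second set of log2 values of the same arrays, whose processing is not given in the sources used here and which served as an alternative. Each of its columns correlated best with its own array (lowest r 0.999). R 2.9.1 is named in the submitters' processing notes. The sources used here do not give the scanner software, the chip layout or any background subtraction, so no chip or date entered a fit.

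Values were taken to the linear scale, background-corrected with limma's normexp (offset 16), quantile normalized over 12 arrays and returned to log2. Detection p-values were planned for the filter but not used here. In their place, chosen after the table was seen, a probe was above background when its linear signal exceeded, at a one-sided p under 0.05, a normal curve whose centre was the mode of that array's log2 signals and whose spread came from the linear signals below it. Probes above background on at least 3 of 12 arrays were tested, 13003 in all, and 9520 were set aside. Limma 3.58.1 in R 4.3.3 fitted 4 group means by lmFit and eBayes, with 8 residual and 4.06 prior degrees of freedom. Over tested probes the standard error of the log2 fold change had a median of 0.10, and the number of arrays limits the precision. Benjamini-Hochberg adjustment ran over all tested probes. Offset and remaining background understate folds of dim probes. A fold against a group with no array above background is a lower bound set on each array's lowest signal above background.

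The platform annotation named 13793 probes with 1 gene and 8730 with none, of which 13752 gene IDs are in RefSeq's GRCr8. A gene is represented by its tested probe with the highest mean LZCM signal. For 200 genes several probes were tested, and in 6 of these the probes were called in opposite directions. Named genes are the 15 largest rises and 15 largest falls that were called, did not overlap and lay above background on every array of 1 group, up to 6 called members of each of 40 lists, the fixed cell type markers, and further members beside their list's counts. The members and lists were chosen with earlier results of these data known. After normalization same-numbered arrays of the 2 times did not deviate together (r = -0.06, 0.01 and 0.04), so numbers were not taken as pairs. Quantile normalization removes shifts of a whole array. Before it the LZCM medians fell with the number, 7.18, 7.05 and 6.96 at 6 h and 7.05, 6.96 and 6.86 at 24 h. What lies behind that order was not tested. On simulated data with 200 of 12819 tested probes changed, 88 of 100 changed 1.5-fold and 100 of 100 changed 2-fold were recovered, with 9 false calls. In LZCM far more probes were called, 4647 of 13003. The share called there was 12.9% in the dimmest quartile and 43.5% in the brightest. The simulated counts therefore describe their own setting only and are not error rates of the LZCM test. Alternatives changed the background correction, offset, normalization, filter, arrays in the fit, variance model, weights, threshold, probe choice and block, used the authors' values, and left out each LZCM array.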

Additional observations from a re-analysis of the deposited data

Results flagged for a closer look

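The change over time differed between the media for 6628 of 13003 probes by the medium by time interaction in limma (Benjamini-Hochberg adjusted p under 0.05). Each value that follows is the log2 time effect in aSCM minus that in LZCM, and each passed that test. Among the genes with the largest rises in LZCM, the differences were -2.27 for Dbx2, -3.14 for Acot1, -1.70 for Cspg5, -2.79 for Gfap, -7.50 for Ccl20, -1.54 for Olig1 and -1.80 for Ltbp1. They were -2.12 for Sparcl1, -2.18 for C1ql1, -2.26 for Atp1b2, -1.73 for Ndrg2, -2.76 for Rlbp1, -1.34 for Gria2 and -0.89 for Vcan. All 14 lay below 0. The genes were ranked by their rise in LZCM, which is subtracted here, so that the common sign is in part set by the ranking.

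Among the genes with the largest falls in LZCM the difference went both ways. It was below 0, a steeper fall in aSCM, for Cxcl10 (-1.06), Cd69 (-1.46), Cxcl11 (-1.26), Abcb1b (-0.45), Ifit3 (-2.12), Cmpk2 (-2.39) and Mx2 (-0.87). It was above 0 for Cxcl13 (2.29), Ccl12 (2.80), Gpr65 (2.19), Akr1b8 (1.50), Usp18 (1.58) and Cd14 (1.78). Ranking by the fall in LZCM favours values above 0.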

How the results depend on the processing

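Alternatives were listed with earlier results of these data known, except a fit to the deposited values without any correction or scaling, which was added after seeing the table. On those values 2767 probes were called, 697 higher and 2070 lower, and 4010 had a called interaction. Of calls 25.2% were then higher, against 49.6%, and the median log2 fold change was -0.15. Directions turned there for Atp5f1a (-0.038), Ndufv2 (-0.0032), Sdhb (-0.034), Mdh1 (-0.0032) and Psma7 (-0.057), none of them called; the cause was not tested. Leaving out each LZCM array in turn gave 3885 to 4138 calls, 1932 to 2090 higher and 1953 to 2053 lower, 6292 to 6368 interactions, 25 to 27 interferon-stimulated genes lower, and 8 astrocyte markers higher each time. With the replicate number as a block 2338 probes were higher and 2368 lower, 4510 calls were shared, and 1 named gene lost its call; 2 of 6 arrays correlated best with the array of their own number. Of 228 called named genes 62 lost the call under at least 1 alternative, among them 55 on the deposited values, the threshold of 0.01 aside, which lost 25. The lists followed under each alternative, the 2 letter patterns, the 5 promoters and the genes drawn were chosen after their results were seen. The background was set in 6 ways before 1 was kept on the number of probes it left: 12351 to 21347 probes were tested, and 3948 to 4700 called. Dim probes limit the test, with 12.9% of the dimmest quartile called against 43.5% of the brightest.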
